A study of Rattus norvegicus with 24 samples.

Results

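Gluconeogenic enzymes are the enzymes that carry carbon from pyruvate back to glucose past the steps of glycolysis that run one way. This set holds Pck1, Pck2, Pc, Fbp1, Fbp2 and G6pc, 6 genes chosen by name, and on the array they had 10 of the 41012 gene probes. All 6 were among the 26644 features tested, where a feature is 1 gene or, without a gene symbol, 1 probe. Where a gene had several probes, the brightest stood for it, and the others are given beside it. The set was proposed after earlier results of these arrays were known, among them a lower Pck1 in the normal colon of rats given DSS. For that contrast, and for the difference between the DSS effects in tumours and in normal colon, the values below are a description without a test.

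The arrays held RNA of tumours and of normal distal colon from 10 male (ACIxF344)F1-Pirc rats, genotype Apc-Pirc/+, with tissue taken at 97 days of age. All 4 groups therefore were heterozygous for a mutation in the tumour suppressor Apc, and normal colon here is the non-tumour tissue of a tumour-bearing rat. Tumours and normal colon of DSS rats came from 5 rats (1, 5, 6, 7 and 9) given dextran sodium sulfate (DSS) at 4% in the drinking water, a polymer of molecular weight 500000 that injures the colonic epithelium, on days 40 to 47 and 54 to 61. Tumours and normal colon of untreated rats came from the other 5 rats (2, 3, 4, 8 and 10). Each sample was labelled with Cy3 and hybridized against pooled colon RNA of Apc wild-type rats, labelled with Cy5. The values are log2 ratios of sample over pool, so that 0 means the level of the pool and a fall of 1 means 2-fold less. There were 24 arrays, because 4 of the 20 samples had a second array, and the 2 arrays of a sample were averaged.

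Probes with Cy3 signal well above background made up 47.6% to 70.5% of the array on 21 arrays and 86.9% to 95.2% on the other 3, which were 1 of the arrays of normal colon of untreated rat 2, normal colon of untreated rat 4 and the tumour of DSS rat 9. The arrays fell into 2 sets by the first part of their slide identifiers, called lots here, with 3 rats of every group in lot 1 and 2 in lot 2. Lot 1 was scanned on scan days 1 and 2 and lot 2 on scan day 3, so lot and scan day cannot be told apart. The number of saturated Cy5 spots was 29 to 152 in lot 1 and 388 to 452 in lot 2. Across all features, the normal colon samples of DSS rats 1 and 5 correlated at 0.970, above the 0.812 to 0.968 of second arrays of 1 sample. The 0.812 was of normal colon of untreated rat 2, which had an array with raised signal. No other pair of rats was compared in this way, so the usual correlation between rats is not known. Whether the samples of rats 1 and 5 hold separate tissue is not given in the labels, so differences that rest on them are also given with the pair counted as 1 sample. All errors on differences are standard errors of 1 limma model with 5 rats per group, and adjusted p-values are limma's, adjusted by Benjamini and Hochberg's method across the 26644 features, and 0.05 was the threshold.

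In gluconeogenesis, pyruvate carboxylase (Pc) makes oxaloacetate inside mitochondria, and the phosphoenolpyruvate carboxykinases turn it into phosphoenolpyruvate, Pck1 in the cytosol and Pck2 in mitochondria. Fructose-1,6-bisphosphatase, encoded by Fbp1 in liver and kidney and by Fbp2 mainly in muscle, removes a phosphate further up the pathway. Glucose-6-phosphatase (G6pc) releases free glucose. Liver and kidney run the whole pathway, the small intestine can do so under some conditions, and in other tissues single enzymes of the set serve other ends, such as refilling the citric acid cycle (Pc) or supplying glycerol for fat (Pck1).

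Pck1 is the member with the largest spread over the 20 samples, and it was read by a pair of probes. They are shown because both put normal colon of untreated rats highest, normal colon of DSS rats next and the tumours lowest, with differences of unequal size. The first probe has 1 spot per array, is the brighter one and stands for the gene, and the second has 10 spots per array.
Pck1 brighter probe: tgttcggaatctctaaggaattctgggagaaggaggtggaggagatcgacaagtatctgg
Pck1 dimmer probe: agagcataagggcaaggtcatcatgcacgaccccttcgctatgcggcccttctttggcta
On the brighter probe Pck1 had log2 ratios of -3.41, -4.09, -5.03, -3.88 and -3.15 in tumours of DSS rats 1, 5, 6, 7 and 9. Its log2 ratios were -2.03, -4.11, -3.70, -4.53 and -4.72 in tumours of untreated rats 2, 3, 4, 8 and 10. Pck1 in the normal colon of the DSS rats had -1.52, -1.62, -3.06, -3.04 and -1.61. In normal colon of the untreated rats it had 0.35, -0.55, 0.05, -0.32 and 0.02. Normal colon of untreated rats sat at the level of the pool, normal colon of DSS rats lay below every one of those samples, and the tumours lay lowest, with the tumour of untreated rat 2 the highest of the 10 tumours and within the range of the normal colon of DSS rats.

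**Figure D1:**
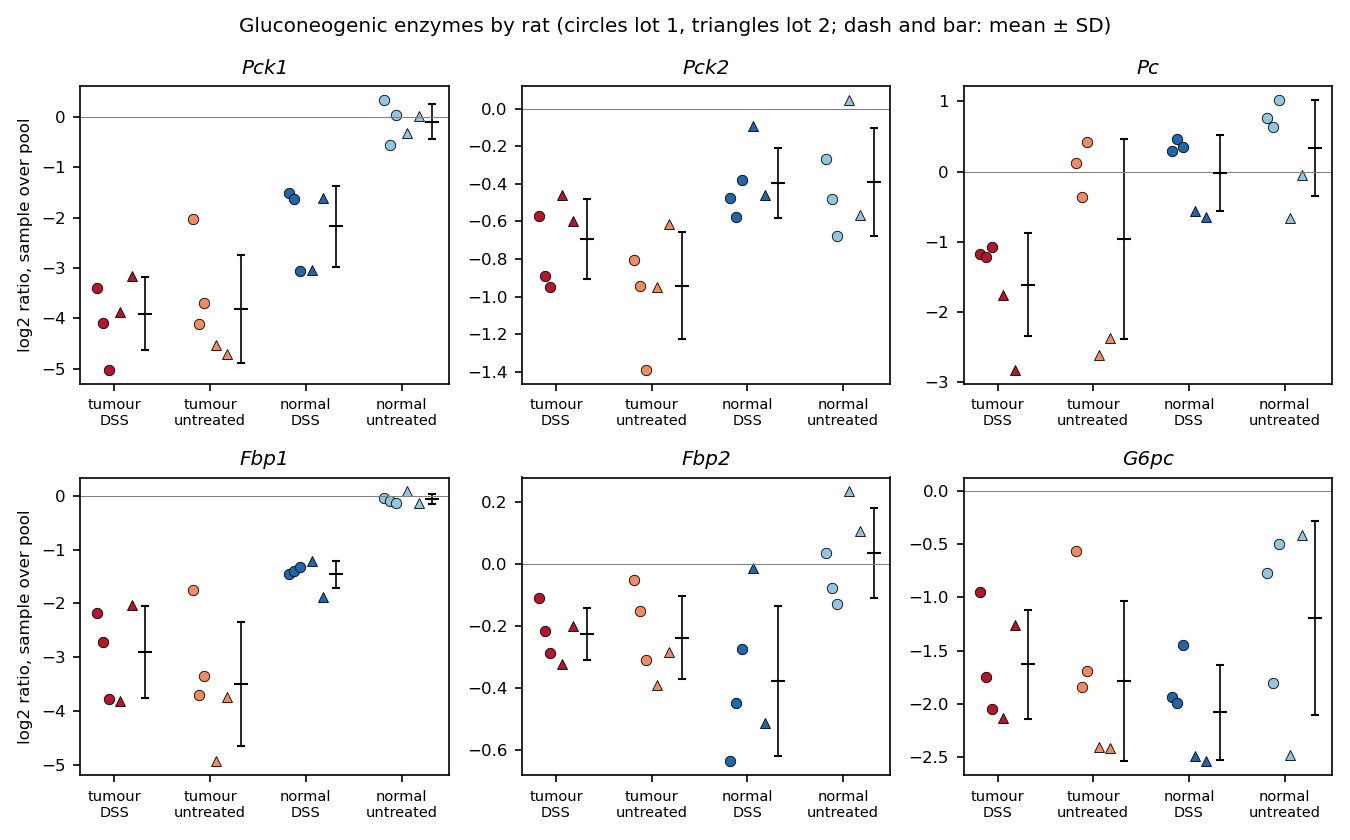
Log2 ratio of sample over pool for each enzyme (vertical axis, a separate scale per panel) in the 4 groups of 5 rats, with circles for lot 1, triangles for lot 2, and a dash with a bar for the mean ± SD. Pck1 and Fbp1 were at the level of the pool in normal colon of untreated rats (means -0.09 and -0.06) and were lower in the 3 other groups, while Pc separates by lot within each group.

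Tumours of untreated rats held much less Pck1 and Fbp1 message than their normal colon, and a little less Pck2. Pck1 averaged -3.82 ± 1.07 in tumours and -0.09 ± 0.35 in normal colon of untreated rats (SD, n = 5 each), a difference of -3.73 ± 0.47, or 13.2-fold lower (limma, adjusted p = 3.98e-05). The tumour was below the normal colon in all 5 rats, with tumour minus normal differences of -2.38, -3.56, -3.75, -4.20 and -4.74 in rats 2, 3, 4, 8 and 10, and the groups did not overlap. The dimmer Pck1 probe fell by 2.18 ± 0.32 in the same comparison (limma, adjusted p = 0.000172), with no overlap either.

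Fbp1 had log2 ratios of -1.75, -3.70, -3.35, -4.94 and -3.75 in tumours of untreated rats 2, 3, 4, 8 and 10. In the normal colon of the same rats it had -0.04, -0.09, -0.14, 0.09 and -0.14. These 5 normal samples spanned a narrow band around the pool, and every tumour lay far below it. The difference was -3.43 ± 0.43, or 10.8-fold lower (limma, adjusted p = 4.33e-05). The second, dimmer Fbp1 probe differed by -1.32 ± 0.28 (limma, adjusted p = 0.00331).

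Pck2, the mitochondrial form, had log2 ratios of -0.81, -0.95, -1.39, -0.95 and -0.62 in tumours of untreated rats 2, 3, 4, 8 and 10. In their normal colon Pck2 had -0.27, -0.48, -0.68, 0.05 and -0.56. The tumour was lower in each rat, but the groups overlapped, by the tumour of rat 10 and the normal colon of rat 4. The difference was -0.55 ± 0.15 (limma, adjusted p = 0.0154). It did not pass in lot 2 alone (adjusted p = 0.262), when arrays were median-centred without loess (0.616) or without rat 8 (0.0896). The second, dimmer Pck2 probe differed by only -0.20 ± 0.06 (limma, adjusted p = 0.0294).

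The remaining members did not pass in untreated rats. Pc, which fills the citric acid cycle with oxaloacetate, had log2 ratios of 0.12, -0.37, 0.42, -2.62 and -2.37 in tumours of untreated rats 2, 3, 4, 8 and 10, against 0.76, 0.63, 1.02, -0.66 and -0.05 in their normal colon. Rats 8 and 10, the lot 2 rats, were lower in both tissues than the lot 1 rats. The difference was -1.30 ± 0.54 (limma, adjusted p = 0.111). It was -0.75 within lot 1 (adjusted p = 0.0183) and -2.14 within lot 2 (adjusted p = 0.0201), and with lot as a block the adjusted p was 0.00180. With the rat as a random or fixed block, which uses the fact that both tissues came from 1 animal, the adjusted p for Pc was 0.0310 and 0.00321. Fbp2, the muscle-type bisphosphatase, was -0.24 ± 0.13 in tumours and 0.04 ± 0.15 in normal colon of untreated rats (SD, n = 5 each), a difference of -0.27 ± 0.10 (limma, adjusted p = 0.0767). Its adjusted p was 0.0456 with the rat as a random block, 0.128 with the rat as a fixed block, 0.0626 with lot as a block and 0.0533 with slide as a block.

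G6pc was dim. Its brighter probe had Cy3 signal well above background on 3 of 6 arrays of tumours from DSS rats, 4 of 5 of tumours from untreated rats, 4 of 6 of normal colon from DSS rats and 6 of 7 of normal colon from untreated rats. In untreated rats it differed by -0.59 ± 0.41 between tumours and normal colon (limma, adjusted p = 0.378), with a tumour below its normal colon in 3 of 5 rats. The second G6pc probe was well above background on 6 of 24 arrays, and its difference was -0.03 ± 0.06. The other 8 probes of the set were well above background on all 24 arrays, and none of the 10 was saturated.

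In untreated rats, then, 3 of the 6 enzymes fell in tumours and none rose. Over all features, 9.43% fell by the same call and 8.57% rose. The median difference over the 6 enzymes was -0.95, and over all features it was -0.00. The tumour was the lower tissue in every untreated rat for 5 of the 6 enzymes, against 16.6% of all features, and the groups did not overlap for 2 of the 6, against 6.15%.

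**Figure D2:**
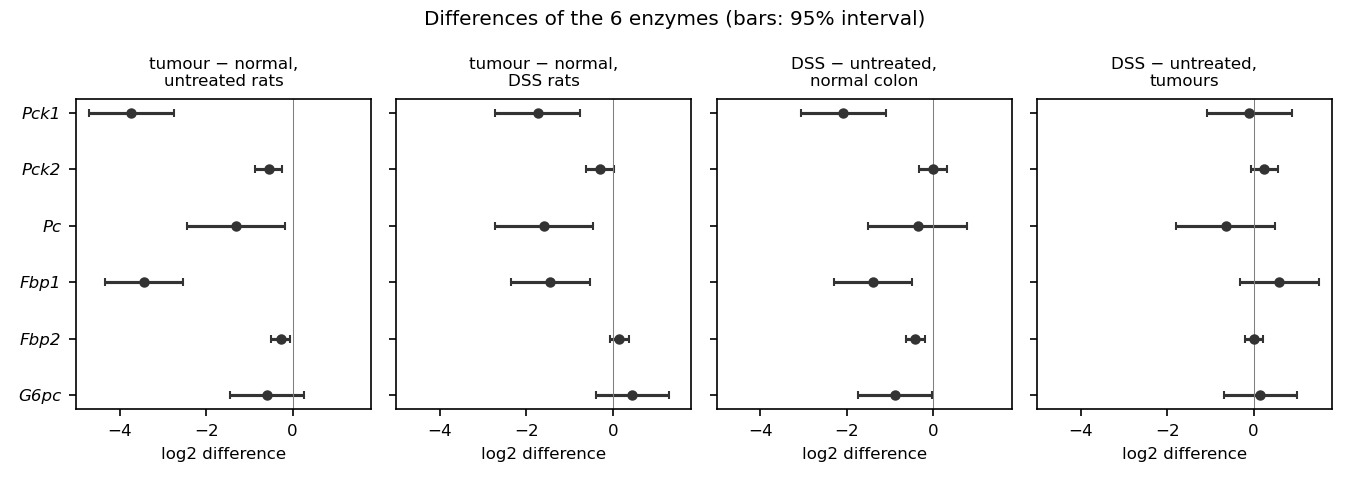
Log2 difference of each enzyme (horizontal axis) with its 95% interval from the limma model in 4 comparisons of 5 rats per group. Pck1 and Fbp1 lie furthest below 0 in untreated rats, at -3.73 and -3.43, and the intervals of all 6 enzymes include 0 for DSS against untreated tumours.

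In DSS rats Pck1 and Fbp1 were again lower in tumours than in normal colon, with differences of -1.74 and -1.44 where untreated rats had -3.73 and -3.43; the difference between these effects is given further on without a test. This comparison and the one before it use different rats, but each shares its normal colon samples with the DSS comparison in normal colon. The Pck1 values of tumours and normal colon of DSS rats are given above; the difference was -1.74 ± 0.47, or 3.34-fold lower (limma, adjusted p = 0.0261). The tumour was lower in all 5 rats, with differences of -1.89, -2.47, -1.97, -0.83 and -1.55 in rats 1, 5, 6, 7 and 9. The lowest normal colon, -3.06 in rat 6, and the highest tumour, -3.15 in rat 9, lay close together. The dimmer Pck1 probe differed by -0.63 ± 0.32 (limma, adjusted p = 0.301) and was not lower in the tumour of rat 7. The call for the brighter probe was lost in lot 1 (-2.11, adjusted p = 0.0592), in lot 2 (-1.19, 0.355), when arrays were median-centred without loess (-1.03, 0.256), without rat 1 (0.0812), rat 5 (0.137) or rat 9 (0.0624), and with the normal colon of rats 1 and 5 counted as 1 sample (0.0775).

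Fbp1 had log2 ratios of -2.18, -2.71, -3.77, -3.81 and -2.03 in tumours of DSS rats 1, 5, 6, 7 and 9. In their normal colon Fbp1 had -1.46, -1.39, -1.33, -1.22 and -1.88. All tumours were below all normal samples, and the tumour minus normal difference was smallest in rat 9, at -0.15. The difference was -1.44 ± 0.43, or 2.72-fold lower (limma, adjusted p = 0.0485). The call was lost in lot 1 (-1.50, adjusted p = 0.0868), in lot 2 (-1.37, 0.424), when arrays were median-centred without loess (-0.73, 0.421), without a signal filter (0.0676), with the rat as a fixed block (0.0582), with rats 1 and 5 of the normal colon as 1 sample (0.0964), and without any 1 of rats 1, 3, 4, 5, 6, 7 or 10 (0.0648 to 0.191). The dimmer Fbp1 probe differed by -0.19 ± 0.28 (limma, adjusted p = 0.770).

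Pc had log2 ratios of -1.18, -1.21, -1.07, -1.76 and -2.83 in tumours of DSS rats 1, 5, 6, 7 and 9, against 0.30, 0.46, 0.35, -0.57 and -0.65 in their normal colon. No tumour reached the normal samples. The difference was -1.59 ± 0.54 (limma, adjusted p = 0.0876). With lot as a block its adjusted p was 0.000831, and with the rat as a random or fixed block 0.0186 and 0.00264. With the normal colon of rats 1 and 5 as 1 sample the difference was -1.49 (adjusted p = 0.185). On the 6 slides that held both tissues of DSS rats, Pc was lower in the tumour on all 6, with differences of -2.18 to -1.16.

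Pck2 in DSS rats averaged -0.69 ± 0.22 in tumours and -0.40 ± 0.19 in normal colon (SD, n = 5 each), a difference of -0.30 ± 0.15 (limma, adjusted p = 0.291). Fbp2 differed by 0.15 ± 0.10 (limma, adjusted p = 0.460), and G6pc by 0.45 ± 0.41 (limma, adjusted p = 0.596). With rats 1 and 5 of the normal colon as 1 sample these differences were -0.33 for Pck2, 0.11 for Fbp2 and 0.48 for G6pc. The dimmer Pck2 probe differed by 0.01 ± 0.06 (limma, adjusted p = 0.968) and the dimmer G6pc probe by 0.10 ± 0.06 (limma, adjusted p = 0.330). For the set, 2 of 6 enzymes fell and none rose, where 3.87% of all features fell and 3.73% rose. The median was -0.87 over the 6 enzymes and 0.02 over all features. In every DSS rat the tumour was lower for 4 of the 6 enzymes, against 10.8% of all features, and groups did not overlap for 3 of the 6, against 3.83%.

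**Figure D3:**
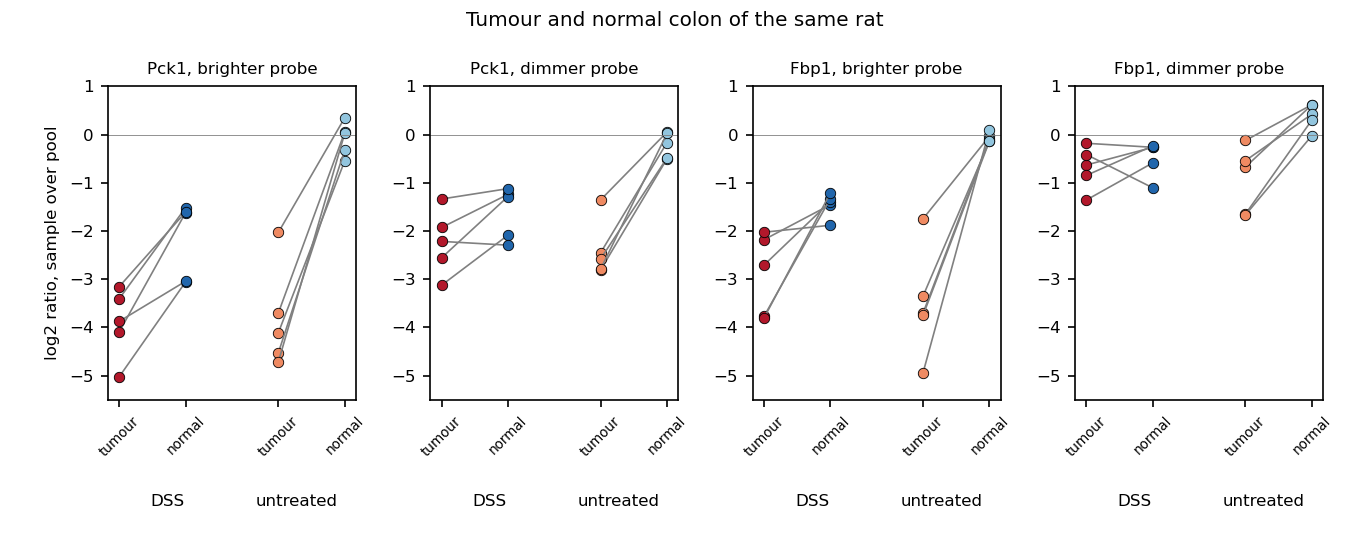
Log2 ratio of sample over pool (vertical axis) for both probes of Pck1 and of Fbp1 in tumour and normal colon, with a line joining the 2 tissues of each rat, DSS rats left and untreated rats right. All 10 lines rise towards normal colon on the brighter probes, and on the dimmer probes the lines of DSS rat 7 (Pck1) and DSS rats 1 and 9 (Fbp1) do not.

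Normal colon of DSS rats, taken at day 97 after DSS had ended on day 61, held less Pck1 and Fbp1 message than normal colon of untreated rats. Pck1 averaged -2.17 ± 0.81 in normal colon of DSS rats and -0.09 ± 0.35 in that of untreated rats (SD, n = 5 each), a difference of -2.08 ± 0.47, or 4.23-fold lower. The DSS samples fell into a higher group of 3 (rats 1, 5 and 9, -1.52 to -1.62) and a lower pair (rats 6 and 7). The dimmer probe gave the same 3 and 2, with -1.24, -1.29, -2.09, -2.29 and -1.12 in rats 1, 5, 6, 7 and 9, and a difference of -1.39 ± 0.32. Both arrays of the normal colon of rat 6 were low on the brighter probe, at -3.29 and -2.83. With rats 1 and 5 counted as 1 sample the Pck1 difference was -2.23.

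Fbp1 averaged -1.46 ± 0.25 in normal colon of DSS rats and -0.06 ± 0.10 in that of untreated rats (SD, n = 5 each), a difference of -1.39 ± 0.43. On this brighter probe rats 6 and 7, the lowest for Pck1, were the 2 highest of the 5. The dimmer Fbp1 probe had -0.26, -0.27, -0.24, -0.59 and -1.10 in normal colon of DSS rats 1, 5, 6, 7 and 9. There rat 6 was again highest, but rat 7 was below all but rat 9, and the difference was -0.88 ± 0.28. Fbp2 had -0.64, -0.45, -0.27, -0.01 and -0.51 in normal colon of DSS rats 1, 5, 6, 7 and 9, against 0.04, -0.08, -0.13, 0.24 and 0.11 in that of untreated rats, a difference of -0.41 ± 0.10. Rat 7 overlapped the untreated samples, and the other 4 DSS rats lay below them. G6pc differed by -0.89 ± 0.41, Pc by -0.36 ± 0.54 and Pck2 by -0.01 ± 0.15. With rats 1 and 5 as 1 sample the differences were -1.40 for Fbp1, -0.37 for Fbp2, -0.92 for G6pc, -0.46 for Pc and 0.02 for Pck2. The dimmer Pck2 probe differed by -0.12 ± 0.06 and the dimmer G6pc probe by -0.04 ± 0.06. Of the 6 enzymes, 2 were past the call in the lower direction (Pck1 and Fbp2), where 3.33% of all features were; the groups did not overlap for Pck1 and Fbp1, where 4.09% of all features did not in that direction. Nothing is read from these counts, since the contrast was known when the set was chosen. Pck1, Fbp1 and Fbp2 were lower with DSS on all 6 slides that held normal colon of both treatments, with differences of -3.07 to -1.52, -1.74 to -1.25 and -0.62 to -0.25.

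Between tumours of DSS rats and of untreated rats no member passed. Pck1 averaged -3.91 ± 0.73 in tumours of DSS rats and -3.82 ± 1.07 in tumours of untreated rats (SD, n = 5 each), a difference of -0.09 with a 95% interval of -1.07 to 0.88. Fbp1 differed by 0.60, with an interval of -0.31 to 1.50, and Pc by -0.65, with an interval of -1.79 to 0.49. Pck2 differed by 0.25 (-0.07 to 0.57), Fbp2 by 0.01 (-0.20 to 0.23) and G6pc by 0.16 (-0.69 to 1.01). These intervals leave room for differences of either sign in all 6 enzymes. On the dimmer probes the differences were 0.16 ± 0.32 for Pck1, 0.24 ± 0.28 for Fbp1, 0.09 ± 0.06 for Pck2 and 0.10 ± 0.06 for G6pc. Over all features the limma test called 0 of 26644, or 0%, with 1673 at an unadjusted p under 0.05 and a smallest adjusted p of 0.167. The count ranged from 0 to 4 over the alternative settings.

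The DSS effect in tumours minus the DSS effect in normal colon was 1.99 ± 0.66 for Pck1 and 1.99 ± 0.61 for Fbp1. It was 1.04 ± 0.57 for G6pc, 0.42 ± 0.15 for Fbp2, 0.26 ± 0.21 for Pck2 and -0.28 ± 0.77 for Pc. On the dimmer probes it was 1.55 ± 0.46 for Pck1, 1.12 ± 0.40 for Fbp1, 0.21 ± 0.09 for Pck2 and 0.14 ± 0.08 for G6pc. None of the 6 was past the call in the model reported, where 2.50% of all features were. Nothing is read from this count or from those with blocks, since this contrast is given without a test. With blocks the count differed. It was 2 of 6 (Pck1 and Fbp1) with the rat as a random block and 1 of 6 (Pck1) with the rat as a fixed block. With slide as a block it was 2 of 6 (Pck1 and Fbp1), and with lot as a block 0 of 6. Of the 26644 features, 1674, 1501, 1347 and 1365 were past it in these settings, in the same order. For each enzyme the value equals the tumour minus normal difference of DSS rats less that of untreated rats, since the same 4 group means enter both.

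Over the groups, Pck1 and Fbp1 took the same order, with normal colon of untreated rats highest, normal colon of DSS rats next and both tumour groups lowest. The 2 tumour groups did not differ beyond their spread for either gene. Fbp1 and Pck1 placed them in opposite orders on the brighter probes and in the same order on the dimmer ones. Pc and Pck2 had lower means in both tumour groups than in both normal groups, with DSS minus untreated differences of -0.36 and -0.01 between the normal groups. Fbp2 was lowest in the normal colon of DSS rats and highest in that of untreated rats, with both tumour groups between. The SD over the 20 samples was 1.75 for Pck1, 1.52 for Fbp1, 1.15 for Pc, 0.71 for G6pc, 0.33 for Pck2 and 0.21 for Fbp2.

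The enzymes that catalyse the reversible steps between phosphoenolpyruvate and glucose 6-phosphate, which gluconeogenesis shares with glycolysis, changed in both directions. Of 12 such enzymes tested, 2 rose and 1 fell in tumours of untreated rats. Phosphoglycerate kinase Pgk1 rose by 1.55 ± 0.17 (adjusted p = 1.03e-05) and phosphoglycerate mutase Pgam1 by 0.67 ± 0.14 (adjusted p = 0.00256). The muscle-type enolase Eno3 fell by 1.91 ± 0.33 (limma, adjusted p = 0.000650). In tumours of DSS rats only Pgk1 of the 12 passed, at 0.81 ± 0.17. In normal colon of DSS rats against that of untreated rats, Pgam1 (0.76 ± 0.14) and Pgk1 (0.67 ± 0.17) rose. The medians over the 12 were 0.08, -0.10 and 0.00 in those 3 comparisons.

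The glycolytic enzymes that run against the set, the hexokinases, phosphofructokinases and pyruvate kinases, were 9 genes. In tumours of untreated rats 2 rose, the platelet-type phosphofructokinase Pfkp by 1.50 ± 0.27 (adjusted p = 0.000888) and hexokinase 3 (Hk3) by 0.50 ± 0.13 (adjusted p = 0.0117), and none fell. In tumours of DSS rats the liver-type pyruvate kinase Pklr rose by 1.23 ± 0.13, and in normal colon of DSS rats it fell by 0.73 ± 0.13. Of the 4 enzymes that make or remove fructose 2,6-bisphosphate, which inhibits fructose-1,6-bisphosphatase, Pfkfb4 fell by 0.59 ± 0.11 in tumours of DSS rats and none passed in the other comparisons. Slc37a4, the transporter that brings glucose 6-phosphate to glucose-6-phosphatase, fell by 0.78 ± 0.15 in tumours of untreated rats and, in normal colon, fell by 0.64 ± 0.15 with DSS, while G6pc3, the widely expressed phosphatase, did not pass.

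Among 17 genes that supply or move precursors, 5 fell in tumours of untreated rats. The mitochondrial dicarboxylate carrier Slc25a10 fell by 1.61 ± 0.28 and cytosolic malate dehydrogenase (Mdh1) fell by 0.55 ± 0.13. In tumours of DSS rats 3 fell, with Slc25a10 at -1.18 ± 0.28 and the pyruvate carrier subunit Mpc2 at -0.59 ± 0.14. None of the 17 passed in normal colon of DSS rats against untreated rats.

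**Figure D4:**
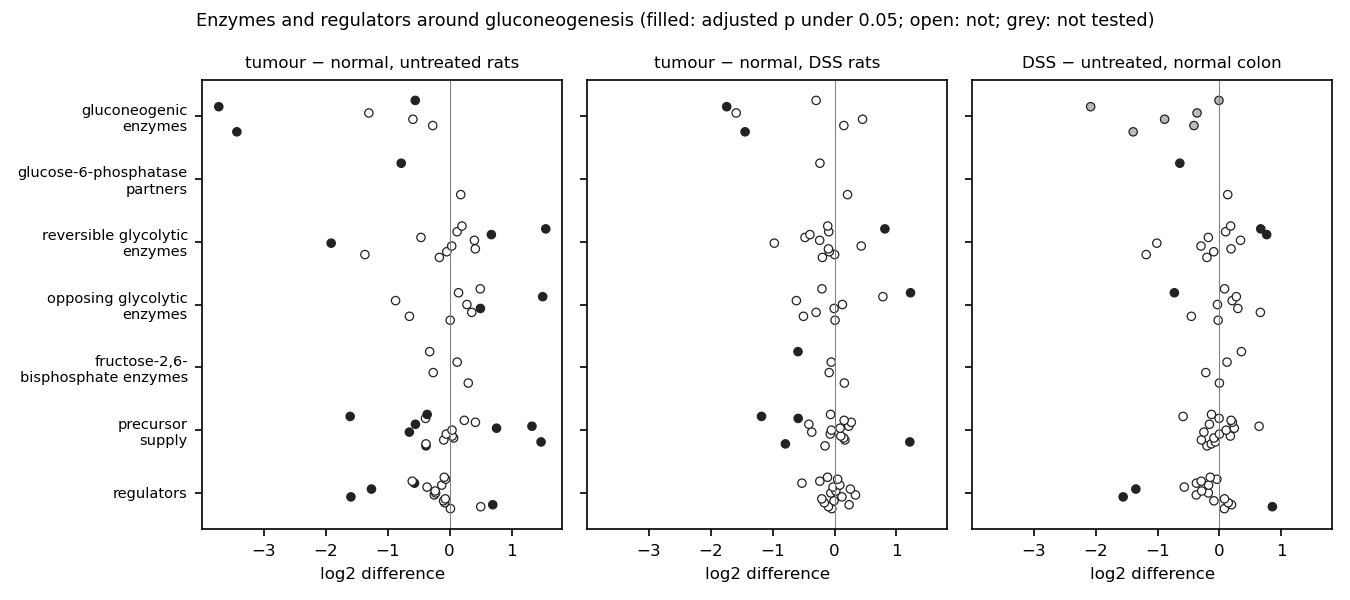
Log2 difference (horizontal axis) of every tested gene of the set and of 6 lists around it in 3 comparisons; filled points passed the adjusted p threshold, open points did not, and the 6 enzymes in the right panel are grey because they were not tested there. Pck1 and Fbp1 are the leftmost points of the left panel, and the reversible glycolytic enzymes lie on both sides of 0.

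The regulators of the pathway were 17 transcription factors, coactivators and hormone receptors. In tumours of untreated rats 1 rose and 3 fell. The glucagon receptor Gcgr fell by 1.59 ± 0.23 (adjusted p = 0.000160), Klf15, a fasting-induced activator of gluconeogenic genes in liver, fell by 1.26 ± 0.27 (adjusted p = 0.00310), and Creb1, which binds cAMP response elements, rose by 0.70 ± 0.18 (limma, adjusted p = 0.0111). None of the 17 passed in tumours of DSS rats. With DSS against untreated, Gcgr in normal colon fell by 1.56 ± 0.23 and Klf15 by 1.35 ± 0.27, and Cebpb, a stress- and cAMP-responsive factor, rose by 0.85 ± 0.24. No gene of any list passed between DSS and untreated tumours.

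The promoter of Pck1 is a textbook target of cAMP signalling, and the 250 bases before its start, from RefSeq on build GRCr8, are shown for that reason. Any link between Pck1 and the changes of Creb1, Gcgr and Klf15 was not tested. The stretch is chr3:182348322-182348571 on the plus strand, and the capitals mark TTACGTCA, the core of its cAMP response element, at -93 to -86 from the start.
Pck1 promoter: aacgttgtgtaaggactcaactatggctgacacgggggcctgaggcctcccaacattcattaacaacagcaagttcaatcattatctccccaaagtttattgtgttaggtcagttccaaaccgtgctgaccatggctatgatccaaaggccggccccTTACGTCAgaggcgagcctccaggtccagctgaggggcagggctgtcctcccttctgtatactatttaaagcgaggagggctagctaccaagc
TTACGTCA, searched on both strands, occurs in 0.75% of 33469 promoters over the same 250 bases, and the palindrome TGACGTCA in 1.59%. Neither was found in these windows of Fbp1, Pck2 and G6pc, which says only that these letters are not there. Promoters of 4 of the 6 enzymes were matched. In GRCr8 the Pck1 gene lies on chromosome 3 at 182348572 to 182354521, and Fbp1 and Fbp2 are neighbours on chromosome 17, at 2212941 to 2235749 and 2241767 to 2259371.

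The genes whose profiles over the 20 samples came closest to Pck1 were Spink1, a trypsin inhibitor, Sgk1, a kinase induced by glucocorticoids, Hpgd, which inactivates prostaglandins, Selenbp1, a methanethiol oxidase, and Slco2b1, an organic anion transporter. Their root mean square difference from Pck1, after centring each gene on its mean, was 0.43, 0.57, 0.58, 0.59 and 0.61, set against an SD of 1.75 for Pck1 itself. Spink1 differed by -3.37 between tumours and normal colon of untreated rats, by -2.02 in DSS rats and by -1.72 between DSS and untreated normal colon. Closest to Fbp1 were Agr3, of the protein disulfide isomerase family, Scin, which severs actin, the kallikrein Klk1c8, the elongation factor Tcea3 and the sialyltransferase St6galnac1, at 0.48, 0.50, 0.50, 0.51 and 0.52, against an SD of 1.52. These genes were picked for that likeness, so their values are a description.

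The tissue pieces were bulk samples, in which fewer cells of a type and less RNA per cell cannot be told apart, and cell type markers moved with the set. Of 6 goblet cell markers tested, 5 fell in tumours of untreated rats and 5 in tumours of DSS rats, among them Tff3 at -2.26 ± 0.30 and -2.39 ± 0.30. Their mean log2 ratio ran from -2.96 to -2.04 in tumours of DSS rats, from -3.08 to -1.02 in tumours of untreated rats, from -0.99 to -0.32 in normal colon of DSS rats and from -0.14 to 0.27 in normal colon of untreated rats. As for Pck1 and Fbp1, normal colon of untreated rats was highest, normal colon of DSS rats next and tumours lowest, and no goblet marker passed between the normal groups. Of 10 absorptive colonocyte markers, 5 fell and 1 rose in each tumour comparison, with means of -2.88 to -1.98 in tumours of DSS rats, -2.86 to -1.25 in tumours of untreated rats, -1.46 to -0.80 in normal colon of DSS rats and -1.34 to -0.46 in normal colon of untreated rats. Between the normal groups 1 absorptive marker rose (Ceacam1) and none fell. The part of these cells in the results was not tested.

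Squamous epithelium markers, which mark skin-like lining and not colon, rose in normal colon of DSS rats for 8 of 8 tested. Their mean log2 ratio was 2.37 to 4.08 in normal colon of DSS rats and 0.01 to 1.49 in normal colon of untreated rats, with 1.49 in rat 8 and at most 0.08 in the other 4. It was 0.17 to 0.60 in tumours of DSS rats and 0.38 to 0.76 in tumours of untreated rats. Trp63 was well above background on no tumour array, but Krt14 and Sprr1a were on all of them. Krt13 was on 5 of 6 arrays of tumours of DSS rats and 5 of 5 of untreated rats, and Krt5 on 2 and 4. Krt4, Krt10, Dsg3 and Ivl were on at most 2 arrays of either tumour group. Of the 8 tested, 1 was higher in tumours than in normal colon of untreated rats, and 6 were lower in tumours of DSS rats. In rat 8 the normal colon had a Pck1 ratio of -0.32, inside the range of the other untreated rats, and an Fbp1 ratio of 0.09. That was the highest of the group on the brighter Fbp1 probe. On the dimmer Fbp1 probe rat 8 had 0.30, below rats 2, 3 and 4 (0.62, 0.62 and 0.42) and above rat 10 (-0.03). Among the 5 DSS rats the highest squamous mean, 4.08 in rat 9, stood beside a Pck1 ratio of -1.61, among the 3 higher ones, and an Fbp1 ratio of -1.88, the lowest of the 5 (-1.10 on the dimmer probe, also the lowest). Of 7 leukocyte markers 4 rose in normal colon of DSS rats and 4 in tumours of untreated rats, of 6 fibroblast markers 1 and 4, and of 6 adipocyte markers 0 and 2. Of 5 smooth muscle markers, 2 fell in tumours of untreated rats (Des and Smtn) and none passed in tumours of DSS rats or in normal colon of DSS rats. For those lists too the part in the result was not tested.

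**Figure D5:**
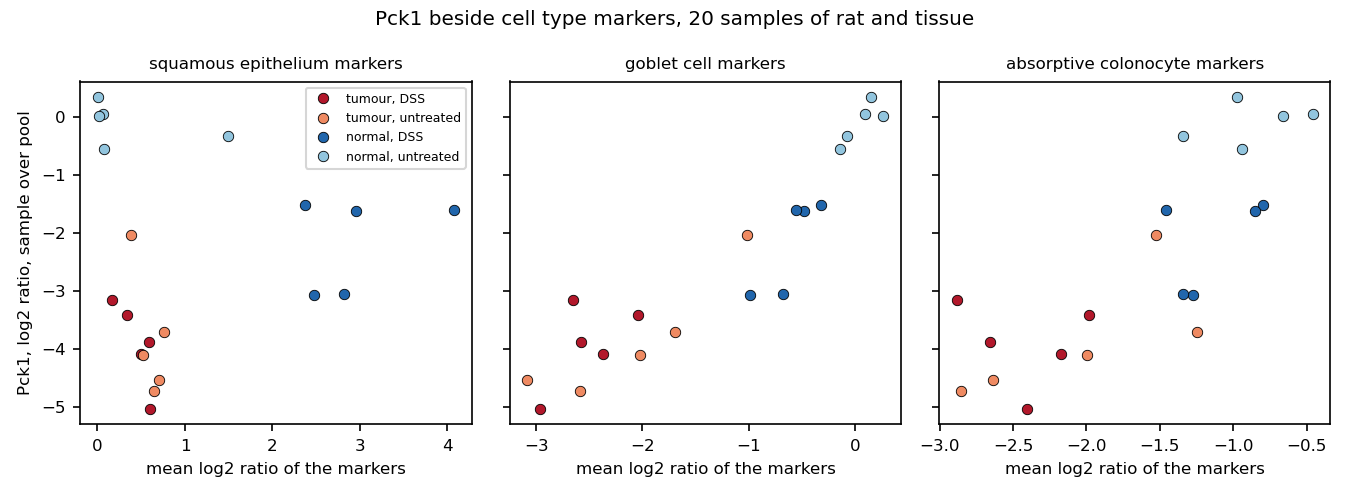
Pck1 log2 ratio (vertical axis) against the mean log2 ratio of squamous, goblet cell and absorptive colonocyte markers (horizontal axes) in the 20 samples of rat and tissue, coloured by group. Normal colon of DSS rats stands apart on the squamous axis at 2.37 to 4.08, and the tumours lie lowest on the goblet axis, at -3.08 to -1.02.

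Liver cells and skeletal muscle are the cells in which G6pc, Pck1 and Fbp2 are best known. Albumin (Alb) was well above background on 1 of 6 arrays of tumours of DSS rats, 1 of 5 of tumours of untreated rats, 0 of 6 of normal colon of DSS rats and 2 of 7 of normal colon of untreated rats. Of the 5 hepatocyte markers tested only Apoa1 passed, lower in both tumour comparisons. Of 7 skeletal muscle markers 1 passed in 1 comparison (Actn3, lower in tumours of DSS rats), and their mean stayed between -0.27 and 0.00 in all 20 samples.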

How the data were processed

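Per the file headers, the arrays were quantified with Feature Extraction 9.1.3.1, and the deposited files give spot and background intensities. A log10 ratio of Cy5 over Cy3 is also deposited and was not used for results. Agilent Feature Extraction and Partek appear in the submitters' processing notes; the role of Partek is not given in the sources used here. Dyes were not swapped. Slides and lots were read from slide identifiers, since no label states them.

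Signals were corrected with normexp (offset 50), and the log2 ratio of Cy3 to Cy5 then underwent loess normalization per array (limma 3.58.1 and statmod 1.5.0 under R 4.3.3; version 1.17.8 of data.table), with weight 0 for control and non-uniform spots. Probes with Cy3 well above background on at least 5 of 24 arrays were kept. Symbols came from accessions (11000 probes), gene IDs (1082), current symbols (5176) and older names (3455); 20299 probes kept the file's name. Missing values made up 0.0741%. G6pc is G6pc1 in the current annotation. limma fitted 20 samples with a mean per group (16 residual and 2.24 prior degrees of freedom), two-sided. Rat numbers pair the tissues because both came from 1 animal: deviations from group means correlated at 0.078 to 0.568, over 0.1 in 9 of 10 rats. The code was tested on simulated data. No depth exists for arrays; their number limits precision.

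All 6 enzymes and all their probes are named. From each list at most the 3 genes with the smallest p among those past the threshold are named per comparison, and for the 2 enzymes with the largest SD the 5 closest profiles. Members and lists were chosen with earlier results of these data known. Genes of the lists that were not on the array, G6pc2 and Slc25a13 among them, are not analysed here. The rises among the genes of precursor supply are not reported here. Alternatives were rat, lot and slide blocks, single lots, other background correction, normalization and filters, other probes, and each rat left out. Counting the normal colon of DSS rats 1 and 5 as 1 sample was added after seeing the data.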

Additional observations from a re-analysis of the deposited data

Results flagged for a closer look

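No enzyme of the set had a rat far from the others in any of 24 groups of 5 tested (Dixon's critical value 0.71). In 4 genes of the lists around the set the DSS effect differed between tumours and normal colon by the interaction term of the limma model, which called 2.50% of all features. The 6 lists held 2, 12, 9, 4, 17 and 17 tested genes. They were chosen with earlier results of these data known, so the count of 4 is a description. The liver-type pyruvate kinase Pklr had a DSS effect in tumours that exceeded that in normal colon by 1.08 ± 0.19 (limma, adjusted p = 0.00396). For Pgam1 the difference of DSS effects was -1.07 ± 0.20 (limma, adjusted p = 0.00586). For the glucagon receptor Gcgr it was 1.71 ± 0.33 (limma, adjusted p = 0.00806), and for Klf15 it was 1.52 ± 0.38 (limma, adjusted p = 0.0405).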

How the results depend on the processing

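Pck1 and Fbp1 were lower in tumours of untreated rats, past the threshold, in each of 25 settings, with adjusted p up to 0.00719 and 0.0136. The rat as a replicate block took the members called in that comparison from 3 to 5 as a random block and to 4 as a fixed block. Calls over all features went from 4796 to 6626 and 6623 in the same 2 settings. In DSS rats the count of members lower in tumours, 2 in the model reported, was 3 with the rat as a random block, lot or slide as a block or processed signals (Pck1, Fbp1 and Pc), 1 in lot 1 alone (Pc, not Pck1 or Fbp1), 0 in lot 2 alone, 0 under median centring, 1 without a signal filter and 0 with the normal colon of rats 1 and 5 as 1 sample. Calls over all features in DSS rats also went from 2024 to 3419, 3244 and 3005 with the random rat, lot and slide blocks. For DSS against untreated normal colon, given without a test, Pck1 ran from -2.30 to -1.86, Fbp1 from -1.64 to -1.28 and Fbp2 from -0.63 to -0.34 over 24 settings. The difference of DSS effects ran from 1.12 to 3.28 for Pck1 and from 1.35 to 2.95 for Fbp1 over 25 settings. With each rat left out, the count of members lower in tumours of DSS rats ran from 0 to 3. The cause was not tested, except that single lots and left-out rats hold fewer samples. Over all features the calls ran from 919 to 6689 in untreated rats, 111 to 3419 in DSS rats, 2 to 3530 in normal colon and 3 to 1674 for the difference of DSS effects, with 4796, 2024, 1929 and 666 in the model reported.

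Values that changed sign in the tested comparisons were all far from the threshold. Signs also changed in the contrasts given without a test. Pck2 for DSS in normal colon kept its sign in 14 of 24 settings (-0.27 to 0.10). The difference of DSS effects for Pc kept its sign in 23 of 25 (-0.78 to 0.54). Between DSS and untreated tumours Pck1 was 1.11 within lot 2, 0.22 with the slide block, 0.46 with median centring, 0.16 on its other probe and -0.32 to 0.35 with each rat left out. Fbp2 was -0.032 within lot 1 and -0.026 to 0.057 with each rat left out, G6pc -0.21 within lot 1, -0.028 with processed signals and -0.012 to 0.46 with each rat left out, and Pc 0.20 within lot 2 and 0.014 with median centring. Pck2 in tumours of DSS rats was 0.42 with median centring and 0.0072 on its other probe. Pc passed with processed signals (0.0404) or without rat 8 (0.0453) in DSS rats. Fbp2 passed in untreated rats without rat 7 (0.0387). The offset of 50 draws ratios of dim probes towards 0 by construction, which limits the tumour values of Pck1 and Fbp1, and G6pc lies near background.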
